A study of Mus musculus with 12 samples.

Results

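The mRNAs of 10 heat shock chaperones were followed in mouse kidney after ischemia-reperfusion injury, with and without hypoxic preconditioning. The genes were chosen by name and function, with earlier results of these data known: the inducible HSP70 genes Hspa1a and Hspa1b, the constitutive HSP70 gene Hspa8, their partners Hsph1, Dnajb1 and Bag3, the HSP90 gene Hsp90aa1, the small heat shock protein gene Hspb1, and the mitochondrial chaperonin pair Hspd1 and Hspe1. All 10 were among the 25553 genes of the deposited table, and all 10 were among the 12357 that passed the filter on low values.

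RNA was sequenced from kidney tissue of 12 wild-type (WT) mice, 3 per group. In renal ischemia-reperfusion injury (RIRI) both renal pedicles were clamped for 45 min and the kidneys were taken after 12 h of reperfusion. Preconditioned mice had breathed 8% oxygen once a day before that, with the session lengthened daily (2 h, then 4 h, and 8 h on day 3). The groups were preconditioned RIRI (hypoxia, then injury), normoxic RIRI (injury without hypoxia), preconditioned sham (hypoxia without injury) and normoxic sham (neither), and the comparisons ask what injury does with and without preconditioning and what preconditioning does with and without injury. Sex, age and the interval between the last session and surgery are not given in the labels, and all libraries carried batch number 1.

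Heat shock proteins hold unfolded proteins in solution and refold them. HSP70 binds short exposed stretches in cycles driven by ATP, which J-domain proteins such as Dnajb1 start and exchange factors such as Hsph1 and Bag3 end, and HSP90 finishes the folding of kinases and steroid receptors. Small heat shock proteins bind unfolding proteins without ATP. The transcription factor HSF1 induces many of these genes by binding heat shock elements, which are inverted repeats of the unit GAA, and ischemia of the kidney is a classical setting in which tubule cells make Hspb1 and the inducible HSP70.

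The stretches with this element close to the gene starts are shown because several of the members share it. They were taken from RefSeq (GRCm38.p6), which had the 250 bases before the annotated start for 8 of the 10 genes, Hspa8 and Hsp90aa1 being the exceptions. Capitals mark a pair of facing units, GAANNTTC or TTCNNGAA, on either strand. In the Hspb1 stretch there are 2 pairs, and in the Hspe1 stretch overlapping pairs make a run of units.
Hspa1a, minus strand, chr17:34972242-34972271: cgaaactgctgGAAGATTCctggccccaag
Hspa1b, minus strand, chr17:34959324-34959353: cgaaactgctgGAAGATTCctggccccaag
Hspb1, plus strand, chr5:135887801-135887830: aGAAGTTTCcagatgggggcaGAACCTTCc
Hsph1, minus strand, chr5:149636351-149636380: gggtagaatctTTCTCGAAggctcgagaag
Hspe1, plus strand, chr1:55088053-55088082: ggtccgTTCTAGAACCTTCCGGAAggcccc

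The Hspa1a and Hspa1b stretches are identical, and 247 of the 250 bases before their starts were the same. The Hspe1 stretch also lies in a window of Hspd1, which starts next to Hspe1 on the opposite strand. A pair was found in 6 of the 8 genes with windows (Hspa1a, Hspa1b, Hspb1, Hsph1, Hspd1 and Hspe1), against 14.5% of 27025 genes with windows. These are not 6 separate stretches, since the Hspe1 stretch serves Hspd1 too. For Hspd1 the match lay before a start inside the span of the gene, and the window at its outermost start had no match. The Hsph1 stretch likewise lies inside the span of its gene, before starts that are not the outermost. A run of 3 units, GAANNTTCNNGAA on either strand, was in the stretch that Hspd1 and Hspe1 share and in the windows of 0.514% of genes. Bag3 and Dnajb1 had no match in these windows, which says only that these letters are not there.

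Hspa1a (chromosome 17, 34969359 to 34972156) and Hspa1b (chromosome 17, 34956429 to 34959238) are neighbours with 10120 bases between them. Of 100-base windows along the Hspa1a transcripts, 47.1% also occur in Hspa1b, so reads could be split or lost between them, and the counting rule is not given in the sources used here. Windows shared with any other annotated gene (GENCODE) made up 62.8% for Hspa8 (chromosome 9, 40801276 to 40805202), 47.5% for Hsp90aa1 (chromosome 12, 110691036 to 110696395), 42.7% for Hspb1 (chromosome 5, 135887919 to 135889563), 26.9% for Hspd1 (chromosome 1, 55077833 to 55088243) and 20.4% for Hspe1 (chromosome 1, 55088148 to 55091317). For each of these 5 the gene sharing most windows was absent from the deposited table (Gm15459, Gm12346, Hsp25-ps1, Hspd1-ps3 and AC117239.2, in that order). How far the shared windows affected the levels of these genes was not measured. Hspd1 and Hspe1 also overlap by 96 bases on opposite strands, and whether counting used strand is not stated. Hsph1 (chromosome 5, 149616843 to 149636498), Dnajb1 (chromosome 8, 83608175 to 83612653) and Bag3 (chromosome 7, 128523583 to 128546981) shared no such window.

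Values are FPKM, that is, sequenced fragments relative to gene length and sequencing depth, and recovered read totals were 33096854 to 35707662 per library. The member with the fewest reads was Hspb1, with 319 in 1 preconditioned sham library, and the most was Hspa8, with 117749 in 1 normoxic sham library. Kidney-defining markers were present in every library, with proximal tubule markers summing to 1440 to 1712 FPKM in preconditioned RIRI, 1007 to 1311 in normoxic RIRI, 3354 to 3468 in preconditioned sham and 3340 to 3541 in normoxic sham. In whole tissue, fewer cells of a type and less RNA per cell cannot be told apart.

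The chaperones did not move as 1 group. Injury raised Hspb1 about 7.51-fold in normoxic mice and 6.13-fold in preconditioned mice, raised Bag3 in both, and raised Hsp90aa1, Hspa8 and Dnajb1 past the test in preconditioned mice. For Hsp90aa1, Hspa8 and Dnajb1 the difference between the injury effects of preconditioned and normoxic mice did not pass the test. In normoxic mice the mitochondrial pair Hspd1 and Hspe1, and Hsph1, were called lower after injury. Only the Hspe1 call held in all 21 alternative settings. The Hspd1 call held in 15 and the Hsph1 call in 7, and the groups of both overlapped. Injured kidneys of preconditioned mice had less Hspb1, Hspa1a and Bag3 mRNA than those of normoxic mice.

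Calls below rest on limma with p adjusted by Benjamini-Hochberg and a threshold of 0.05. In normoxic RIRI against normoxic sham, 2 of 10 members were called higher and 3 lower, where 41.6% of all tested genes were called higher and 30.1% lower. In preconditioned RIRI against preconditioned sham, 5 were called higher, where the background was 33.0%. No member was called lower there against a background of 19.4%, nor with limma voom or at an unadjusted p under 0.05 (21.6% of all tested genes), since all 10 log2 fold changes were positive. In preconditioned RIRI against normoxic RIRI, 3 were called lower, where the background was 17.4%. None was called higher by limma or limma voom, against a background of 24.7%, and 1 (Hspe1) was higher at an unadjusted p under 0.05, where 30.1% of all tested genes were.

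In preconditioned sham against normoxic sham, 1 member was called, lower, where 0.235% of tested genes were called lower and 0.186% higher. With 10 genes these counts are coarse: in normoxic mice the share called was under or near the background, in the next 2 comparisons above it in 1 direction, and none is read as particular to the chaperones. The median log2 fold change of the 10 members was 0.40 after injury in normoxic mice and 0.63 after injury in preconditioned mice, against 0.10 over all tested genes in each. It was -0.19 between the injured groups and -0.72 between the sham groups, against 0.06 over all tested genes in each. The comparisons share groups: the libraries of each group stand in more than 1 of them.

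**Figure D1:**
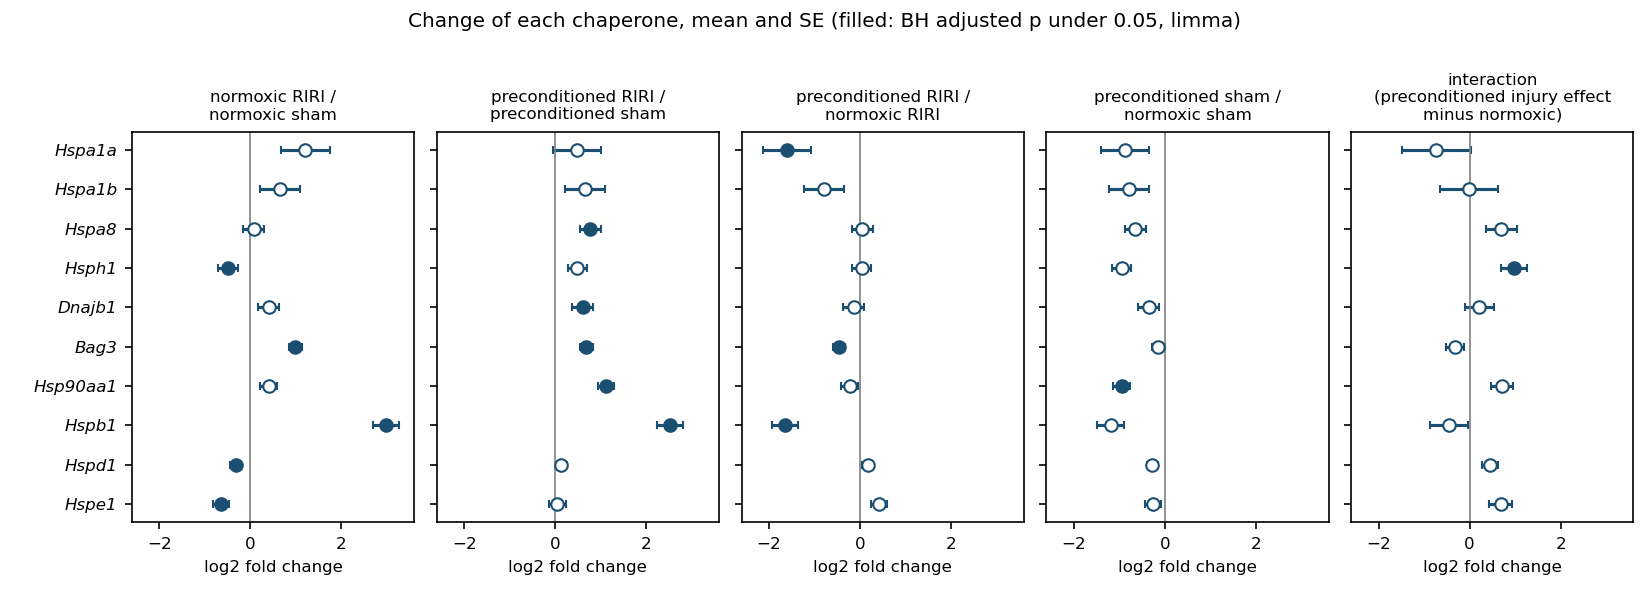
Log2 fold change on the log2(FPKM + 1) scale with its standard error for the 10 chaperones in 4 comparisons and in the interaction, n = 3 libraries per group. Filled points are called by limma. Hspb1 reaches 2.98 in normoxic and 2.52 in preconditioned mice after injury, and all 10 points lie under 0 between the sham groups.

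Hspb1 encodes HSP25, the mouse form of human HSP27, a small heat shock protein that also protects actin filaments. It had 82.6, 61.6 and 103 FPKM in preconditioned RIRI, 218, 278 and 273 in normoxic RIRI, 13.2, 10.4 and 16.8 in preconditioned sham, and 25.2, 22.7 and 54.5 in normoxic sham. The 4 groups did not overlap at all: normoxic RIRI was highest, preconditioned RIRI next, then normoxic sham, and preconditioned sham lowest. Hspb1 thus had the widest range of the 10 genes, with the highest library at 26.9 times the lowest.

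After injury Hspb1 was higher by 2.98 ± 0.29 (log2, SE) in normoxic mice (adjusted p = 2.55e-06) and by 2.52 ± 0.29 in preconditioned mice (adjusted p = 3.29e-05), in 3 of 3 libraries each. In preconditioned RIRI it fell by 1.65 ± 0.29 relative to normoxic RIRI (adjusted p = 0.00118), to 0.321 times the mean. In all 21 alternative settings these 3 calls were made. Between the sham groups the log2 difference was -1.19 ± 0.29, which did not pass (adjusted p = 0.123, with 0.0515 to 0.322 over the alternatives) although the groups did not overlap. The injury effect itself differed between preconditioned and normoxic mice by -0.45 ± 0.42 (adjusted p = 0.455), so a smaller injury effect was not shown.

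Summed markers of neutrophils, of monocytes and macrophages, of endothelium and of muscle were, like Hspb1, highest in normoxic RIRI and next in preconditioned RIRI. Unlike Hspb1, these sums overlapped between the sham groups. The summed level of 7 neutrophil markers was 23.6 to 111 FPKM in preconditioned RIRI, 132 to 293 in normoxic RIRI, 1.73 to 4.39 in preconditioned sham and 2.26 to 15.1 in normoxic sham. That of 7 monocyte and macrophage markers was 110 to 116 in preconditioned RIRI, 159 to 217 in normoxic RIRI, 73.2 to 75.9 in preconditioned sham and 72.3 to 84.0 in normoxic sham. Smooth and skeletal muscle markers, 5 of 6 of them in the table, summed to 116 to 129 FPKM in preconditioned RIRI, 149.6 to 245 in normoxic RIRI, 46.2 to 51.4 in preconditioned sham and 43.4 to 64.0 in normoxic sham. The 6 endothelial markers summed to 147 to 154 FPKM in preconditioned RIRI and 162 to 203 in normoxic RIRI. They summed to 133 to 143 FPKM in preconditioned sham and 127 to 143 in normoxic sham. Single markers did not all follow the sums. In preconditioned RIRI against normoxic RIRI all 7 neutrophil markers were called lower. Of 7 monocyte and macrophage markers 1 was called higher and 1 lower there, as were 1 and 1 of 3 tested muscle markers. Of the 6 endothelial markers 1 was called higher and 2 lower. No marker of these lists was at 0 in all 12 libraries, and their part in the Hspb1 result was not tested.

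Of 7 other small heat shock protein genes, 5 reached the level needed for testing. Of these 5, 4 rose after injury in normoxic mice (median log2 fold change 0.85) and 3 in preconditioned mice (0.92). Of all tested genes, 41.6% and 33.0% were called higher in these comparisons. Cryab, which encodes alpha B-crystallin, had 179, 242 and 205 FPKM in preconditioned RIRI, 273, 232 and 294 in normoxic RIRI, 105, 67.2 and 139 in preconditioned sham, and 63.9, 93.0 and 96.2 in normoxic sham. Its log2 fold change was 1.66 ± 0.23 in normoxic mice (adjusted p = 4.77e-05) and 1.05 ± 0.23 in preconditioned mice (adjusted p = 0.00275). Hspb8, a partner of Bag3 in selective autophagy, rose by 1.30 ± 0.13 in both (adjusted p = 3.01e-06 and 1.12e-05). Between the injured groups only Hspb7 of the 5 was called, at -0.62 ± 0.12 (adjusted p = 0.00159).

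**Figure D2:**
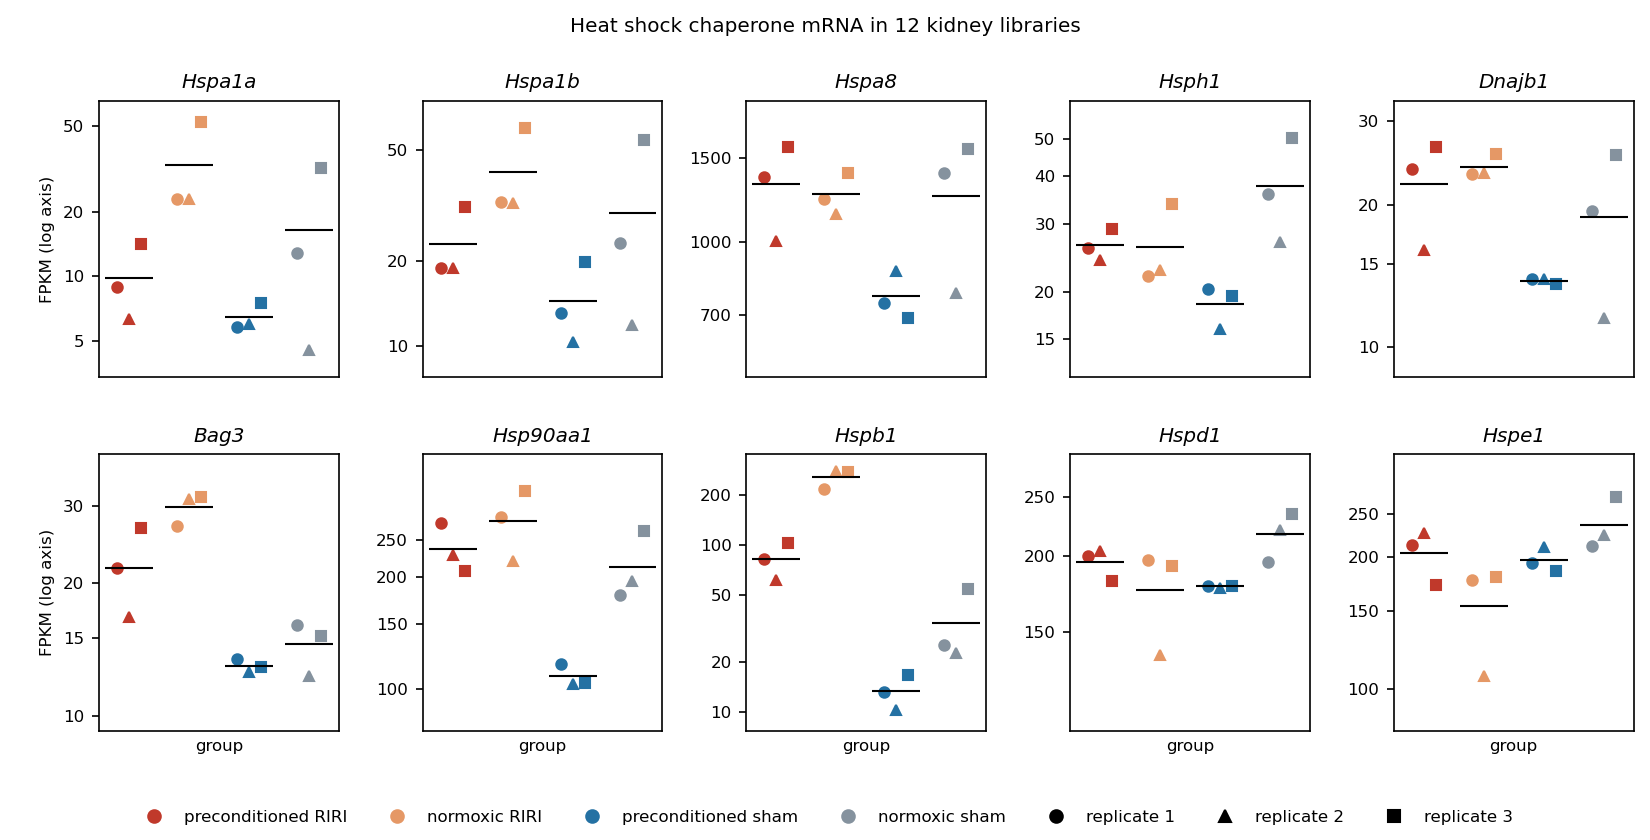
FPKM of each chaperone in every library, on log axes whose range differs between panels. Points are libraries (shape gives the replicate number), bars the group mean, and groups run from preconditioned RIRI on the left to normoxic sham on the right. The Hspb1 groups are fully separated, while normoxic sham spans from 4.51 to 31.9 FPKM for Hspa1a.

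Hspa1a and Hspa1b encode the stress-inducible HSP70. After injury both had lower values in preconditioned than in normoxic mice, past the test for Hspa1a. Hspa1a had 8.95, 6.29 and 14.15 FPKM in preconditioned RIRI, 23.0, 23.0 and 52.6 in normoxic RIRI, 5.82, 6.02 and 7.49 in preconditioned sham, and 12.9, 4.51 and 31.9 in normoxic sham. Hspa1b had 19.0, 19.0 and 31.1 FPKM in preconditioned RIRI, 32.6, 32.2 and 59.7 in normoxic RIRI, 13.1, 10.3 and 19.8 in preconditioned sham, and 23.3, 11.9 and 54.1 in normoxic sham. For both genes preconditioned RIRI lay under normoxic RIRI without overlap, whereas normoxic sham overlapped every other group. Replicate 3 was the highest library within each of the 4 groups for both genes.

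In preconditioned RIRI, Hspa1a fell by 1.60 ± 0.53 relative to normoxic RIRI (adjusted p = 0.0296), in 3 of 3 libraries. The call held in 17 of 21 alternatives and was lost without preconditioned RIRI replicate 1 or 2 (adjusted p = 0.0638 and 0.105), without normoxic RIRI replicate 3 (0.112, log2 fold change -1.22) and with no filter on low genes (0.0834). For Hspa1b the same difference was -0.80 ± 0.44 and did not pass (adjusted p = 0.167). Injury effects passed the test for neither gene. In normoxic mice they were 1.21 ± 0.53 for Hspa1a (adjusted p = 0.058) and 0.66 ± 0.44 for Hspa1b (0.201), and in preconditioned mice 0.48 ± 0.53 (0.468) and 0.65 ± 0.44 (0.241).

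The calls in normoxic mice changed with normoxic sham replicate 3 and with other settings. Without that library, the injury effect was 1.84 for Hspa1a (adjusted p = 0.00332) and 1.20 for Hspa1b (adjusted p = 0.0124), both called. Dnajb1 (0.64, adjusted p = 0.0192) and Hsp90aa1 (0.57, adjusted p = 0.0114) were then called too, so that 6 of 10 members were called higher in place of 2, and Hsph1 and Hspd1 were no longer called lower. With all 12 libraries kept, limma voom called Hspa1a (1.30, adjusted p = 0.041) and Hsp90aa1 (0.41, adjusted p = 0.048), and quantile normalization called Hsp90aa1 (0.47, adjusted p = 0.0285). Hsp90aa1 was also called without normoxic RIRI replicate 2 (0.57, adjusted p = 0.0101) or preconditioned RIRI replicate 1 (0.40, adjusted p = 0.0496).

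Hspa8, the constitutive HSP70 that also uncoats clathrin vesicles, was by far the most abundant member and made up 51.7% to 66.7% of the summed FPKM of the 10 genes. It had 1373, 1006 and 1587 FPKM in preconditioned RIRI, 1230.0, 1147 and 1399 in normoxic RIRI, 743, 866 and 691 in preconditioned sham, and 1399, 781 and 1567 in normoxic sham. The preconditioned sham libraries were low together, with 2 of the 3 normoxic sham libraries far above them and the third within their range. Hspa8 rose by 0.77 ± 0.23 after injury in preconditioned mice (adjusted p = 0.0159, 3 of 3 libraries), and the call was lost without preconditioned RIRI replicate 3 (0.0679) or preconditioned sham replicate 3 (0.0541) and with no filter (0.0534). In normoxic mice the difference was 0.07 ± 0.23 (adjusted p = 0.806), and the injury effects differed by 0.70 ± 0.33 (interaction, adjusted p = 0.142). Between sham groups the Hspa8 difference was -0.65 ± 0.23 (adjusted p = 0.253).

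The 3 partners of HSP70 did not follow 1 pattern. Hsph1, the HSP110 exchange factor, had 26.0, 24.2 and 29.2 FPKM in preconditioned RIRI, 22.0, 22.7 and 33.8 in normoxic RIRI, 20.3, 15.9 and 19.5 in preconditioned sham, and 36.0, 26.9 and 50.4 in normoxic sham. It was therefore highest in normoxic sham and lowest in preconditioned sham, and the sham groups did not overlap. In normoxic mice it fell after injury by 0.49 ± 0.21 at the edge of the threshold (adjusted p = 0.0499). The groups overlapped, and the call held in 7 of 21 alternatives. Leaving out any 1 of 10 libraries ended the call, with -0.27 (adjusted p = 0.227) without normoxic sham replicate 3. It was also lost with a pseudocount of 0.1 (0.0508), no filter (0.108), no mean-variance trend (0.0519) and only the groups compared (0.101).

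In preconditioned mice Hsph1 differed by 0.49 ± 0.21 after injury (adjusted p = 0.0665), without overlap. Its log2 fold change after injury was higher in preconditioned than in normoxic mice by 0.98 ± 0.29 (interaction, adjusted p = 0.0322), with opposite signs. Hsph1 was the 1 member called among 10, where 11.3% of tested genes were called higher and 12.6% lower. That call was lost in 9 of 20 alternatives, among them those without normoxic sham replicate 1 (adjusted p = 0.0604) or replicate 3 (0.0616), preconditioned sham replicate 2 (0.0723) or 3 (0.0522), normoxic RIRI replicate 1 (0.0561) or 2 (0.0655), and preconditioned RIRI replicate 1 (0.0506) or 3 (0.0636). No member was lower for the interaction by limma, limma voom or at an unadjusted p under 0.05 (20.0% of all tested genes).

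Dnajb1, the HSP40 whose J-domain starts the HSP70 cycle, had 23.8, 16.1 and 26.5 FPKM in preconditioned RIRI, 23.2, 23.3 and 25.5 in normoxic RIRI, 13.9, 13.9 and 13.6 in preconditioned sham, and 19.4, 11.5 and 25.5 in normoxic sham. The 3 preconditioned sham values were almost the same, while normoxic sham overlapped every other group. Dnajb1 rose by 0.61 ± 0.23 after injury in preconditioned mice (adjusted p = 0.0412). The call held in 11 of 21 alternatives and was lost with no filter (0.0999), under median-ratio rescaling (0.0824), under quantile normalization (0.0986) and without any 1 of 7 libraries, the highest adjusted p being 0.147 without preconditioned RIRI replicate 3. In normoxic mice the difference was 0.40 ± 0.23 (adjusted p = 0.134), and the injury effects differed by 0.21 ± 0.32 (interaction, adjusted p = 0.667).

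Bag3, which links HSP70 and small heat shock proteins to autophagy, had 21.6, 16.8 and 26.6 FPKM in preconditioned RIRI, 26.95, 31.05 and 31.3 in normoxic RIRI, 13.5, 12.55 and 12.9 in preconditioned sham, and 16.0, 12.3 and 15.2 in normoxic sham. Both injured groups lay above both sham groups, and the sham groups overlapped. Bag3 rose by 0.99 ± 0.14 in normoxic mice (adjusted p = 5.49e-05) and by 0.68 ± 0.14 in preconditioned mice (adjusted p = 0.00186), each in 3 of 3 libraries. In preconditioned RIRI it fell by 0.46 ± 0.14 relative to normoxic RIRI (adjusted p = 0.0221), a call lost without preconditioned RIRI replicate 2 (-0.30, adjusted p = 0.0853) or normoxic RIRI replicate 2 (0.0623) or 3 (0.0659), with no filter (0.055) and with only the groups compared (0.0697). Its difference between the sham groups was -0.14 ± 0.14 (adjusted p = 0.694).

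Hsp90aa1, the inducible cytosolic HSP90, had 278, 228 and 207 FPKM in preconditioned RIRI, 288, 219.7 and 339 in normoxic RIRI, 117, 103 and 104 in preconditioned sham, and 178, 195 and 266 in normoxic sham. The preconditioned sham libraries stood below the other 9, with the next lowest library at 178. Hsp90aa1 rose by 1.12 ± 0.18 after injury in preconditioned mice (adjusted p = 0.00026, all 21 alternatives), against a difference of 0.40 ± 0.18 in normoxic mice (adjusted p = 0.0556). The difference between these injury effects was 0.71 ± 0.25 (adjusted p = 0.056). Between the injured groups Hsp90aa1 differed by -0.23 ± 0.18 (adjusted p = 0.302).

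In preconditioned sham, Hsp90aa1 fell by 0.95 ± 0.18 relative to normoxic sham (adjusted p = 0.0474), to 0.509 times the mean and in 3 of 3 libraries. This was the 1 member called between the sham groups. The call held in 9 of 21 alternatives: it was lost without any 1 of the 6 sham libraries (adjusted p = 0.0708 to 0.219), without preconditioned RIRI replicate 3 (0.0555) or normoxic RIRI replicate 1 (0.0603), and in 4 other settings. The log2 fold change was between -1.07 and -0.78 throughout.

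Hspd1 and Hspe1 encode HSP60 and HSP10, which form the folding chamber of mitochondria. Hspd1 had 200.4, 204 and 182 FPKM in preconditioned RIRI, 197, 138 and 193 in normoxic RIRI, 179, 177 and 179 in preconditioned sham, and 195, 221 and 235 in normoxic sham. Hspe1 had 212, 226 and 173 FPKM in preconditioned RIRI, 177, 107 and 179.9 in normoxic RIRI, 193, 210.0 and 185 in preconditioned sham, and 211, 224 and 273 in normoxic sham. Normoxic sham was the highest group on average for both, and normoxic RIRI replicate 2 was the lowest library for both.

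In normoxic mice, Hspe1 fell by 0.64 ± 0.18 after injury (adjusted p = 0.00753, 3 of 3 libraries, called in all 21 alternatives) and Hspd1 by 0.32 ± 0.12 (adjusted p = 0.0353). The Hspd1 groups overlapped, and its call held in 15 of 21 alternatives. It was lost without normoxic RIRI replicate 2 (-0.15, adjusted p = 0.125) or normoxic sham replicate 2 (0.0861) or 3 (0.121), under quantile normalization (-0.23, adjusted p = 0.13), with no filter (0.0726) and with only the groups compared (0.0904). In preconditioned mice the injury differences were 0.05 ± 0.18 for Hspe1 (adjusted p = 0.844) and 0.13 ± 0.12 for Hspd1 (adjusted p = 0.39). The injury effects of preconditioned and normoxic mice differed by 0.68 ± 0.26 for Hspe1 (adjusted p = 0.0732) and 0.45 ± 0.17 for Hspd1 (adjusted p = 0.0814), neither past the test.

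Other genes of mitochondrial protein folding did not move as a block. Of 11 tested, 3 rose and 2 fell in normoxic mice after injury, and 3 rose and 1 fell in preconditioned mice. Over all tested genes 41.6% rose and 30.1% fell in normoxic mice, and 33.0% and 19.4% in preconditioned mice. Hspa9, the mitochondrial HSP70, rose in both, by 0.49 ± 0.06 (adjusted p = 2.44e-05) in normoxic and 0.39 ± 0.06 (adjusted p = 0.000319) in preconditioned mice. Clpx, a subunit of the ClpXP protease, fell by 0.96 ± 0.12 in normoxic mice (adjusted p = 2.18e-05).

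Between the sham groups the chaperones had lower values after preconditioning, and 1 gene passed the test. All 10 log2 fold changes were negative, between -1.19 and -0.14, and 5 genes (Hsph1, Hsp90aa1, Hspb1, Hspd1 and Hspe1) had no overlap between groups, where 6.36% of tested genes were lower without overlap and 23.0% higher. No member was higher by limma, limma voom or at an unadjusted p under 0.05 (10.8% of all tested genes). At that unadjusted p 5 members were lower, where 3.14% of all tested genes were. The summed FPKM of the 10 genes was 1249 to 1426 in preconditioned sham and 1511 to 2572 in normoxic sham. It was 1809 to 2380 in preconditioned RIRI and 2022 to 2588 in normoxic RIRI. The summed levels of 5 of 12 marker lists were higher in preconditioned sham than in normoxic sham without overlap. Red blood cell markers summed to 1655 to 2039 FPKM in preconditioned sham and 691 to 963 in normoxic sham. Those of the thick ascending limb summed to 1895 to 2051 FPKM in preconditioned sham and 1573 to 1736 in normoxic sham, and those of the distal tubule and collecting duct to 603 to 728 in preconditioned sham and 456 to 492 in normoxic sham. The other 2 were podocytes, with 82.9 to 85.1 FPKM in preconditioned sham and 64.6 to 81.9 in normoxic sham, and fibroblasts and pericytes, with 50.5 to 52.7 in preconditioned sham and 41.1 to 48.2 in normoxic sham. Their part in the result was not tested.

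The HSP90 machinery showed the same direction between the sham groups. Among 16 other HSP90 genes and HSP90 co-chaperones, 12 had negative log2 fold changes (median -0.28) and 2 were called lower, where 0.235% of tested genes were. Hsp90ab1, the constitutive cytosolic HSP90, had 437, 405 and 404 FPKM in preconditioned sham, against 617, 612 and 778.5 in normoxic sham. It fell by 0.68 ± 0.09 without overlap (adjusted p = 0.00772), and the call was made in all 21 alternatives. Ahsa2, a relative of the HSP90 ATPase activator Ahsa1, fell by 0.74 ± 0.14 (adjusted p = 0.0474, called in 10 of 21 alternatives). The J-domain gene Dnaja4 fell by 0.78 ± 0.13 (adjusted p = 0.0299, 15 of 21 alternatives). The calls of Ahsa2 and Dnaja4 were lost without normoxic sham replicate 3 (adjusted p = 0.232 and 0.123). The related lists did not all share this direction. Log2 fold changes were positive for 6 of 6 BAG and exchange factor genes (median 0.09) and 9 of 11 mitochondrial folding genes (0.02). So were 5 of 8 HSP70 and HSP110 genes (0.04), 4 of 5 small heat shock proteins (0.01) and 2 of 3 heat shock factor genes (0.01). Negative were 7 of 11 J-domain genes (-0.04) and 11 of 14 TRiC and prefoldin genes (-0.06). The all-gene median was 0.06.

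**Figure D3:**
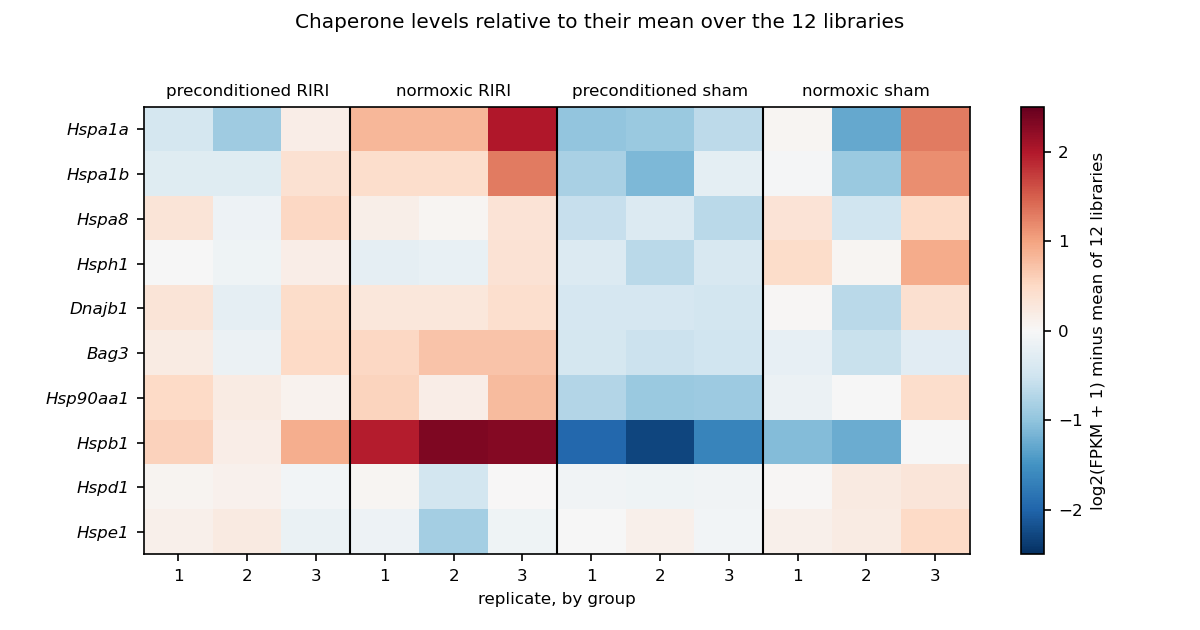
Level of each chaperone in each library as log2(FPKM + 1) minus its mean over the 12 libraries, by group and replicate. Red is above and blue below the mean. Preconditioned sham libraries are below the mean for most chaperones, and normoxic sham replicates 2 and 3 differ in the HSP70 rows.

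The spread between libraries was highest in normoxic sham for 6 of the 10 members, in normoxic RIRI for 3 (Hsp90aa1, Hspd1 and Hspe1) and in preconditioned RIRI for Bag3. In normoxic sham the SD of log2 levels over the 3 libraries was 1.29 for Hspa1a, 1.05 for Hspa1b, 0.67 for Hspb1, 0.55 for Dnajb1 and 0.54 for Hspa8, against a median of 0.08 over all tested genes. Hspa1a stood at the 99.97th percentile of tested genes in that spread and Hsph1, at 0.44, at the 98.85th. In preconditioned sham, where the median over all tested genes was also 0.08, the SD was 0.17 for Hspa1a, 0.17 for Hspa8, 0.02 for Dnajb1 and 0.01 for Hspd1, but 0.44 for Hspa1b (98.32th percentile) and 0.32 for Hspb1 (96.29th). The SD of Bag3 was 0.05 in preconditioned sham and 0.19 in normoxic sham, the 88.44th percentile there.

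In 3 of the 4 groups the same library was highest for most members. Normoxic sham replicate 3 was the highest of its group for 9 of 10 members, all but Bag3, and replicate 2 the lowest for 7. Replicate 3 was also highest for 7 members in preconditioned RIRI and for 8 in normoxic RIRI, while in preconditioned sham no replicate was highest for more than 5. The neutrophil markers summed to 2.26, 5.51 and 15.1 FPKM in normoxic sham replicates 1, 2 and 3; their part in the spread was not tested. Over all tested genes, same-numbered libraries of different groups showed no clear link (correlations of deviations -0.248 to 0.165). Whether they shared handling was not tested.

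In the wider chaperone network most genes of the cytosolic chaperonin rose after injury. The background was 41.6% called higher and 30.1% lower in normoxic mice, and 33.0% and 19.4% in preconditioned mice. Of 14 genes of TRiC, which folds actin and tubulin, and of prefoldin, 12 rose and 1 fell in normoxic mice (median log2 fold change 0.61), and 11 rose in preconditioned mice (median 0.56), against all-gene medians of 0.10. Cct2 had 106, 106 and 106 FPKM in preconditioned RIRI, 131, 112 and 133 in normoxic RIRI, 67.2, 66.4 and 66.4 in preconditioned sham, and 65.95, 65.8 and 70.2 in normoxic sham. It rose by 0.88 ± 0.07 in normoxic mice (adjusted p = 4.9e-07) and by 0.66 ± 0.07 in preconditioned mice (adjusted p = 1.85e-05). Its levels in the 6 sham libraries were close together.

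The next counts have the same background, 41.6% higher and 30.1% lower in normoxic mice and 33.0% and 19.4% in preconditioned mice. Among 6 other BAG genes and exchange factors, 4 rose and 2 fell in normoxic mice, and 3 rose and 2 fell in preconditioned mice. Bag2, an HSP70 exchange factor that inhibits the ubiquitin ligase CHIP, rose by 1.74 ± 0.14 in normoxic mice (adjusted p = 6.11e-07) and by 1.51 ± 0.14 in preconditioned mice (adjusted p = 7.76e-06). Of 11 other J-domain genes, 8 rose and 2 fell in normoxic mice and 6 rose in preconditioned mice. Dnajc5, the cysteine string protein, rose by 1.49 ± 0.10 in normoxic mice (adjusted p = 9.43e-08) and was lower in preconditioned RIRI than in normoxic RIRI by -0.59 ± 0.10 (adjusted p = 0.000727). Dnaja1 and Dnaja4, HSP70 partners, fell in normoxic mice by 1.04 ± 0.18 (adjusted p = 0.000248) and 0.94 ± 0.13 (adjusted p = 4.53e-05).

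Other HSP90 genes and co-chaperones split in normoxic mice, with 4 of 16 rising and 5 falling (all tested genes: 41.6% and 30.1%). In preconditioned mice 11 of 16 rose (all tested genes: 33.0%). The injury effect differed between preconditioned and normoxic mice for 9 of the 16 by the interaction test. For 8 of them the log2 fold change was higher in preconditioned mice, where 11.3% of all tested genes were called higher and 12.6% lower. Ahsa1 had 79.0, 70.0 and 73.0 FPKM in preconditioned RIRI, 65.4, 46.8 and 63.1 in normoxic RIRI, 53.5, 52.5 and 45.9 in preconditioned sham, and 78.2, 69.4 and 90.45 in normoxic sham. Its interaction was 0.98 ± 0.18 (adjusted p = 0.00398), and that of Hsp90ab1 was 0.57 ± 0.13 (adjusted p = 0.0104). Fkbp5, a glucocorticoid-induced HSP90 co-chaperone, rose by 1.69 ± 0.27 in normoxic mice (adjusted p = 0.000131) and was lower in preconditioned RIRI than in normoxic RIRI by -0.98 ± 0.27 (adjusted p = 0.0128).

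Of the other HSP70 and HSP110 genes, 8 of 9 were tested. Of these, 4 rose and 1 fell in normoxic mice (all tested genes: 41.6% and 30.1%). In preconditioned mice 6 rose and 1 fell (all tested genes: 33.0% and 19.4%). Hspa12a, a distant HSP70 relative, was the gene that fell, by 1.10 ± 0.10 (adjusted p = 9.29e-07) in normoxic and 0.68 ± 0.10 (adjusted p = 0.000127) in preconditioned mice. Of the heat shock factors and their binding protein, 3 of 5 genes were tested. Hsf1 rose by 0.45 ± 0.13 in preconditioned mice after injury (adjusted p = 0.00981). In normoxic mice Hsf1 was not called, while Hsf2 was called higher and Hsbp1 lower. The 3 log2 fold changes lay between -0.18 and 0.29 there. For the interaction they lay between -0.24 and 0.19, and 0 were called, so a different injury effect on Hsf1 was not shown.

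**Figure D4:**
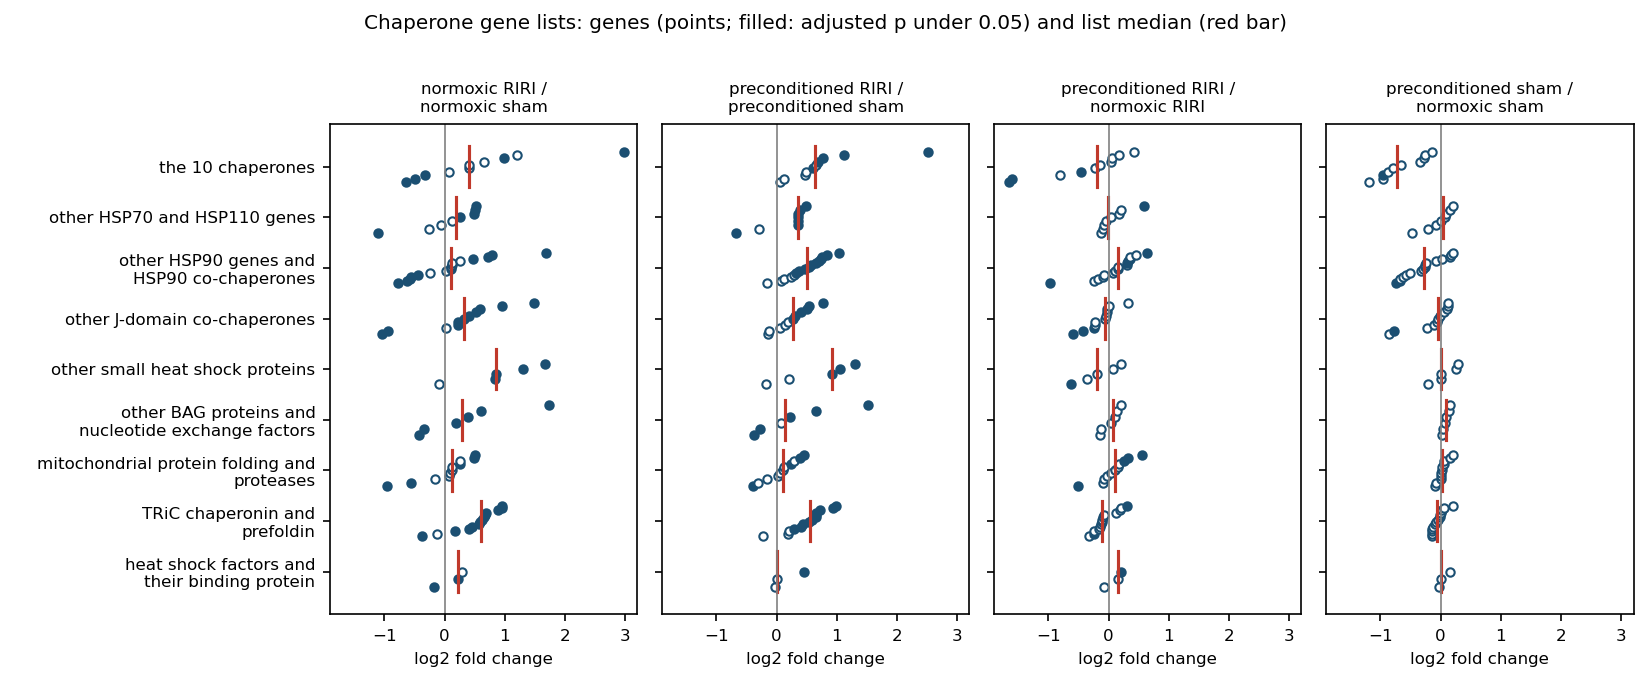
Log2 fold change of every tested gene in the 10 chaperones and in 8 lists of related genes, in 4 comparisons (n = 3 libraries per group). Filled points were called by limma, and the red bar is the median of the list. TRiC and prefoldin genes lie to the right after injury, and the HSP90 list is shifted to the left between the sham groups.

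The genes most like each variable member were sought over the 12 libraries by the mean absolute difference of centred log2 levels. Only members with an SD of at least 0.5 over the libraries were followed. For Hspb1 the nearest gene was Hmox1, heme oxygenase 1, at 0.295, followed by Inhbb (0.341) and Maff (0.343). Hmox1 averaged 145 ± 16.2 FPKM in preconditioned RIRI, 314 ± 45.9 in normoxic RIRI, 21.1 ± 6.59 in preconditioned sham and 45.0 ± 21.3 in normoxic sham (SD, n = 3 each), so its groups stood in the order of the Hspb1 means. For Hsp90aa1 the nearest were Hsp90ab1 (0.207), Cacybp (0.220) and Ly6a (0.223). The neighbours of Hspa1a (Rgcc, 0.459) and of Hspa1b (Mbd1, 0.345) lay farther away, and Hspa1a and Hspa1b themselves differed by 0.311.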

How the data were processed

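The authors deposited 1 table of FPKM for 12 kidney libraries with 1 value per gene symbol. The submitters' processing notes name mm10, HTSeq and DESeq2 without versions or roles; the aligner, the annotation and the strand setting: not given in the sources used here. Total RNA was extracted with TRIzol and sequenced on a DNBSEQ-T7, per the labels' protocols. Whole reads were recovered from the steps between FPKM values for all 25553 genes (tolerance 0.001 reads), giving each library's depth. The 66 library pairs were checked for duplicates, and none was found.

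Values were tested as log2(FPKM + 1), which understates changes of low genes, with limma 3.58.1 in R 4.3.3, with a mean-variance trend, keeping genes that reached an FPKM of 1 in 3 or more libraries. A single fit of 4 group means gave all contrasts, and the interaction is the injury effect in preconditioned minus that in normoxic mice. p values were adjusted by Benjamini-Hochberg over the 12357 tested genes and called under 0.05. FPKM errors are SD, fold change errors SE. Per the series' design text n counts mice.

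The 10 members and the lists were chosen with earlier results of these data known. All members are described; of each list, up to 4 called genes with the smallest adjusted p per comparison could be named. Alternatives were another pseudocount, filter, scaling, spread model, replicate block, limma voom on recovered reads, and leaving out each library. The fit was tested on simulated data.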

Additional observations from a re-analysis of the deposited data

Results flagged for a closer look

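The injury effect differed between preconditioned and normoxic mice by the interaction test for 1 of the 10 chaperones, Hsph1. Its log2 fold change after injury was -0.49 in normoxic and 0.49 in preconditioned mice, a difference of 0.98. It had 26.5 ± 2.54 FPKM in preconditioned RIRI, 26.2 ± 6.61 in normoxic RIRI, 18.6 ± 2.33 in preconditioned sham and 37.8 ± 11.8 in normoxic sham (SD, n = 3 each). Its log2 difference was 0.04 between the injured groups and -0.95 between the sham groups.

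Related genes were called by the same test, with the difference in log2 fold change given in brackets. The log2 fold change after injury was higher in preconditioned mice for Dnaja1 (1.18), Chordc1 (1.14), Ahsa2 (1.09), Ahsa1 (0.98), Fkbp4 (0.89) and Dnaja4 (0.79). The same held for Clpx (0.65), Stip1 (0.64), Hsp90ab1 (0.57), St13 (0.55), Hspa12a (0.42), Hspa13 (0.41) and Trap1 (0.39). The log2 fold change was lower in preconditioned mice for Dnajc5 (-0.72), Grpel2 (-0.66), Hspb7 (-0.63), Dnajc2 (-0.41) and Unc45a (-0.40). A higher value can be a smaller fall. Hspa12a averaged 2.68 FPKM in preconditioned RIRI and 4.89 in preconditioned sham, against 1.48 in normoxic RIRI and 4.29 in normoxic sham. The adjusted p values, from limma, were between 0.0031 for Ahsa2 and 0.046 for Unc45a. Chordc1, Fkbp4, Stip1, St13 and Unc45a lie beyond the 4 smallest p of their list and were added after their values were seen.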

How the results depend on the processing

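Of 1040 member values under alternative settings, 947 kept direction and call, 63 lost a call, 30 gained one and 0 called values changed sign. With no filter, 1 member was called lower after injury in normoxic mice, 3 higher after injury in preconditioned mice, 1 lower in preconditioned than in normoxic RIRI, 0 lower between the sham groups and 0 for the interaction. Between the sham groups the count was also 0 with a pseudocount of 0.1 and with quantile normalization. Fitting only the groups compared left 1 lower after injury in normoxic mice. The voom fit called 4 higher there and 2 for the interaction, and a filter at FPKM 5 called 2 for the interaction. The cause was not tested. Leaving out single libraries gave 2 to 6 higher and 1 to 3 lower after injury in normoxic mice, 3 to 6 higher and 0 to 0 lower in preconditioned mice, 0 to 1 higher and 1 to 3 lower between injured groups, 0 to 0 higher and 0 to 1 lower between sham groups, and 0 to 3 higher and 0 to 0 lower for the interaction. Where a group keeps 2 libraries, limma assumes that it varies like the others.

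Same-numbered libraries of different groups had correlations of deviations between -0.248 and 0.165, and 6 of 12 libraries were nearest to their own number. No clear pairing by number was thus seen over all tested genes. Whether same-numbered mice were handled together was not tested. With the replicate block, 4 members were called higher after injury in normoxic mice (Bag3, Hspb1, Hspa1a with adjusted p = 0.00794 and Hspa1b with 0.0232). Calls were also gained for Hspa1b in preconditioned RIRI against normoxic RIRI (-0.80, adjusted p = 0.0187) and, after injury in preconditioned mice, for Hspa1b (0.65, adjusted p = 0.0352) and Hsph1 (0.49, adjusted p = 0.0129). Between the sham groups Hsph1 (adjusted p = 0.0218) was called in place of Hsp90aa1 (adjusted p = 0.0683).

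Scaling moved the share of higher among all calls. It was 58.7% between the injured groups and 44.6% after median-ratio rescaling, 63.0% and 52.3% after injury in preconditioned mice, and 44.2% and 21.5% between the sham groups. With 3 libraries per group, differences within the normoxic sham spread of the HSP70 genes could not be resolved.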
